A study of Homo sapiens with 3 samples.

Results

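Genes of cholesterol synthesis, uptake and export were followed on 1-colour arrays in HT29, a long-established line of human colorectal cancer cells. All cells grew in low-glucose DMEM with fetal bovine serum; for 24 h they received DMSO, the solvent control, or 5 µM or 20 µM of a linderapyrone derivative, whose structure the sources used here do not name. Each group had 1 array, so no test could be run, the spread between cultures is unknown, and precision is limited by the number of arrays. A list of 35 gene symbols was matched to the annotation of the array platform. It found 32 genes, measured by 35 probes, among 18639 genes on the array; IDI1, FDFT1 and NR1H2 are not analysed here. The 32 genes comprised 17 enzymes of synthesis, 5 regulators of the SREBP factors, 6 genes of uptake and intracellular transport, and 4 genes of export, storage and the liver X receptors (LXR).

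Cholesterol is built from acetyl-CoA through mevalonate, farnesyl diphosphate, squalene and lanosterol. When the endoplasmic reticulum (ER) holds little sterol, SCAP carries the SREBP factors to the Golgi, where they are cut and freed to switch on the genes of synthesis and uptake; when sterol is plentiful, INSIG proteins hold SCAP back. Oxysterols act in the opposite sense through the LXR factors, which raise the exporters ABCA1 and ABCG1 and the ubiquitin ligase MYLIP, which marks lipoprotein receptors for degradation.

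Values are given as normalized signal, the background-corrected brightness of a probe after quantile normalization with an offset of 50 included, and differences as log2 ratios of it. The offset makes the ratios of dim genes too small. A probe was detected where its spot signal exceeded the blank spots by 2 SD, at thresholds of 82.5 with DMSO, 79.4 with 5 µM and 80.2 with 20 µM. Of the 32 genes, 31 were detected on all 3 arrays, and ABCA1 was detected in DMSO and at 5 µM but not at 20 µM. Over the whole array 15920 of 18639 genes were detected on all 3 arrays. The SD of a log2 ratio between 2 probes of the same gene was 0.11 for 5 µM against DMSO, 0.14 for 20 µM against DMSO and 0.12 for 20 against 5 µM. This SD covers probes on the same arrays and leaves out the spread between cultures. A gene was counted as apart where the ratio reached 1.5-fold, and a 2-fold limit is given beside it.

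Markers of the colon epithelium were detected on all arrays for 11 of 11 genes on the array, with DMSO spot signals of 9660 for EPCAM and 4288 for LGALS4. CDX2 and CDH17, at 92.6 and 88.6, stood only just above the threshold. Of the markers of other cell types on the array, 4 of 6 for fibroblasts, 3 of 4 for blood cells, 3 of 4 for endothelium and 3 of 4 for liver were also detected on all arrays. Since 15920 of 18639 genes passed this limit, detection alone says little of a cell type. The brightest of these with DMSO were DCN at 231 and PDGFRB at 148 for fibroblasts, CD14 at 146 for blood cells besides LYZ, CLDN5 at 129 for endothelium and TAT at 102 for liver, so several exceeded CDX2 and CDH17. COL1A1, COL1A2, PTPRC, PECAM1 and ALB were below the threshold on every array. The summed spot signals with DMSO, 5 µM and 20 µM were 735, 693 and 695 for the fibroblast markers, 394, 371 and 374 for the endothelial ones and 373, 356 and 378 for the liver ones. The part of other cell types in the results was not tested. LYZ, listed among the blood markers, was bright, at 15819 with DMSO, 12100.0 with 5 µM and 12204 with 20 µM.

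Promoter sequences of some of the genes on which the comparisons turn are shown because SREBP factors bind short sterol regulatory elements there, often near a CCAAT box bound by the factor NF-Y. They come from RefSeq, build GRCh38.p14, and run for 250 bases up to the base before the annotated start of the gene, 5′ to 3′ in the sense of transcription. Capitals mark matches on either strand to TCACCCCAC, the core of the classical sterol regulatory element, to its looser forms TCACNCNAC and ATCACNNCA, and to CCAAT, which reads ATTGG when it lies on the opposite strand. SREBF2 encodes SREBP2 itself. By normalized signal, MVK, FDPS and INSIG1 were lower at both doses, and MSMO1, SC5D and CYP51A1 were lowest at 5 µM and highest at 20 µM. STARD4 was higher at both doses, though at 5 µM its log2 ratio of 0.26 became 0.10 under median scaling.
SREBF2, chr22:41832855-41833104, plus strand: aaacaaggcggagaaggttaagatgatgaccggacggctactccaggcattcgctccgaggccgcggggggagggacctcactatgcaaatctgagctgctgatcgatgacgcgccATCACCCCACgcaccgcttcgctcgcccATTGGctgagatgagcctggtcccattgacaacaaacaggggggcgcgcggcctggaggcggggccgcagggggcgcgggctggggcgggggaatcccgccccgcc
MVK, chr12:109573544-109573793, plus strand: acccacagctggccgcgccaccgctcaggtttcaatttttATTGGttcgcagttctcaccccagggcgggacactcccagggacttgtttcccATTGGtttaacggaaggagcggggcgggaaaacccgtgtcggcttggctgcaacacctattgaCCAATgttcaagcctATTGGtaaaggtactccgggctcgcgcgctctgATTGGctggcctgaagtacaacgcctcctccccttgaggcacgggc
FDPS, chr1:155308616-155308865, plus strand: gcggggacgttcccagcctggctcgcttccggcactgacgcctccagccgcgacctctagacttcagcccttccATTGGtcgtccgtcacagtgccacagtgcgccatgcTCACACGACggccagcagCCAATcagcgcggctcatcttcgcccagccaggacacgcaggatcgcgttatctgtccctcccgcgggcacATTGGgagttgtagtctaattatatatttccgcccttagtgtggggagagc
INSIG1, chr7:155297628-155297877, plus strand: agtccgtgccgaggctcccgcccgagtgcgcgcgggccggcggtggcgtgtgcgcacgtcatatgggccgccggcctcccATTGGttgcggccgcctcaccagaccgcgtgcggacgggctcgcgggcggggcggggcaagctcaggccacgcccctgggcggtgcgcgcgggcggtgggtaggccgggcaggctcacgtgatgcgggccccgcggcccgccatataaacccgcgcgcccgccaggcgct
MSMO1, chr4:165327419-165327668, plus strand: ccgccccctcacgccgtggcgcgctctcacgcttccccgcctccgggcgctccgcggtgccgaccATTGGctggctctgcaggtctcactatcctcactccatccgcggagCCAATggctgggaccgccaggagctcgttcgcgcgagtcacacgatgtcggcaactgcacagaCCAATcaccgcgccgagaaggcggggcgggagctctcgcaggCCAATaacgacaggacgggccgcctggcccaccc
SC5D, chr11:121292521-121292770, plus strand: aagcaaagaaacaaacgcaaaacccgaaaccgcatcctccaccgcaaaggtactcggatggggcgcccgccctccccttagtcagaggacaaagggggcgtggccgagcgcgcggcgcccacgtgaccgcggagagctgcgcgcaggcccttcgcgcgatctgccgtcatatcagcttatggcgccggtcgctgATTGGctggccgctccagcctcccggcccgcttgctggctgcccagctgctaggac
CYP51A1, chr7:92134478-92134727, minus strand: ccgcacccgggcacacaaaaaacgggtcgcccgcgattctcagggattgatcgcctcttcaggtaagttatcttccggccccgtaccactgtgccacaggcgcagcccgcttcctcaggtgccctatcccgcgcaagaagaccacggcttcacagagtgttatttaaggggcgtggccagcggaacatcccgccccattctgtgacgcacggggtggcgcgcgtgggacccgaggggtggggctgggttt
STARD4, chr5:111512536-111512785, minus strand: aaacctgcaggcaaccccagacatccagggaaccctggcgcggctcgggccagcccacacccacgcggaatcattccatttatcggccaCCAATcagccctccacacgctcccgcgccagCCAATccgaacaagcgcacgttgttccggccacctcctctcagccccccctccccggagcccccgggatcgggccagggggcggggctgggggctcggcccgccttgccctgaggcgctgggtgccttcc

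The table held windows for 28 of the 32 genes, 38 in all, since some genes have several starts; for SC5D the first of its windows is shown. No window was available for ACAT2, SQLE, SCARB1 and ABCG1, so SQLE and ABCG1 are missing from the sequences shown. TCACCCCAC was found in 1 of the 38 windows, that of SREBF2, 133 bases before the start, and in 0.362% of 35116 windows of all genes. TCACNCNAC, which includes that motif, also matched the windows of FDPS and HSD17B7, 3 of 38 against 2.02% of all windows. ATCACNNCA overlapped the same site of SREBF2 and matched no other window of the 38, against 1.93% of all. CCAAT was found in 22 of the 38 windows and in 32.0% of all windows. For the enzymes of synthesis it was present in 14 of 20 windows, which belong to 13 of 15 genes. The MVK window held 5 matches to CCAAT, the MSMO1 window 4 and the CYP51A1 window 0. A match is a description of the letters, and their absence from a window of this length says nothing of a factor.

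In the first comparison, 5 µM against DMSO, most enzymes of synthesis lay below DMSO, while the LXR targets ABCG1, MYLIP and ABCA1 lay above it. Of the 17 enzymes, 14 had log2 ratios below 0, with a median of -0.29 and a range from -0.63 to 0.23. This count uses 1 probe per gene. The second probes of MVD and EBP stood above 0, at 0.16 and 0.056. HSD17B7 and MVD, at -0.015 and -0.081, lay within the SD between probes. Over all 16075 genes detected on both arrays, 47.9% were below 0 and 52.0% above, and the median was 0.0043. The 4 genes of export, storage and LXR were all above 0, with a median of 0.18, and 3 of the 4 were above 0 after median scaling. With the scanner's own background column, which followed the spot signal closely, the median of the enzymes became 0.023. ABCG1, ABCA1 and MYLIP then stood at 0.047, 0.035 and -0.20. The DMSO spot signals of ABCG1 and ABCA1 were 112 and 91.1, near the detection threshold. SREBF1, another LXR target and also dim, stood at 0.013 in the main setting.

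At the 1.5-fold limit 1 gene of the 32 was lower at 5 µM, MVK, and 1 was higher, ABCG1. The background was 0.0871% of genes lower and 0.386% higher, that is 14 and 62 of 16075. Under median scaling these became 137 lower and 28 higher, and 6 of the 32 genes were then lower. None of the 32 reached 2-fold in either direction, against 0.00622% of all genes lower and 0.0498% higher.

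**Figure D1:**
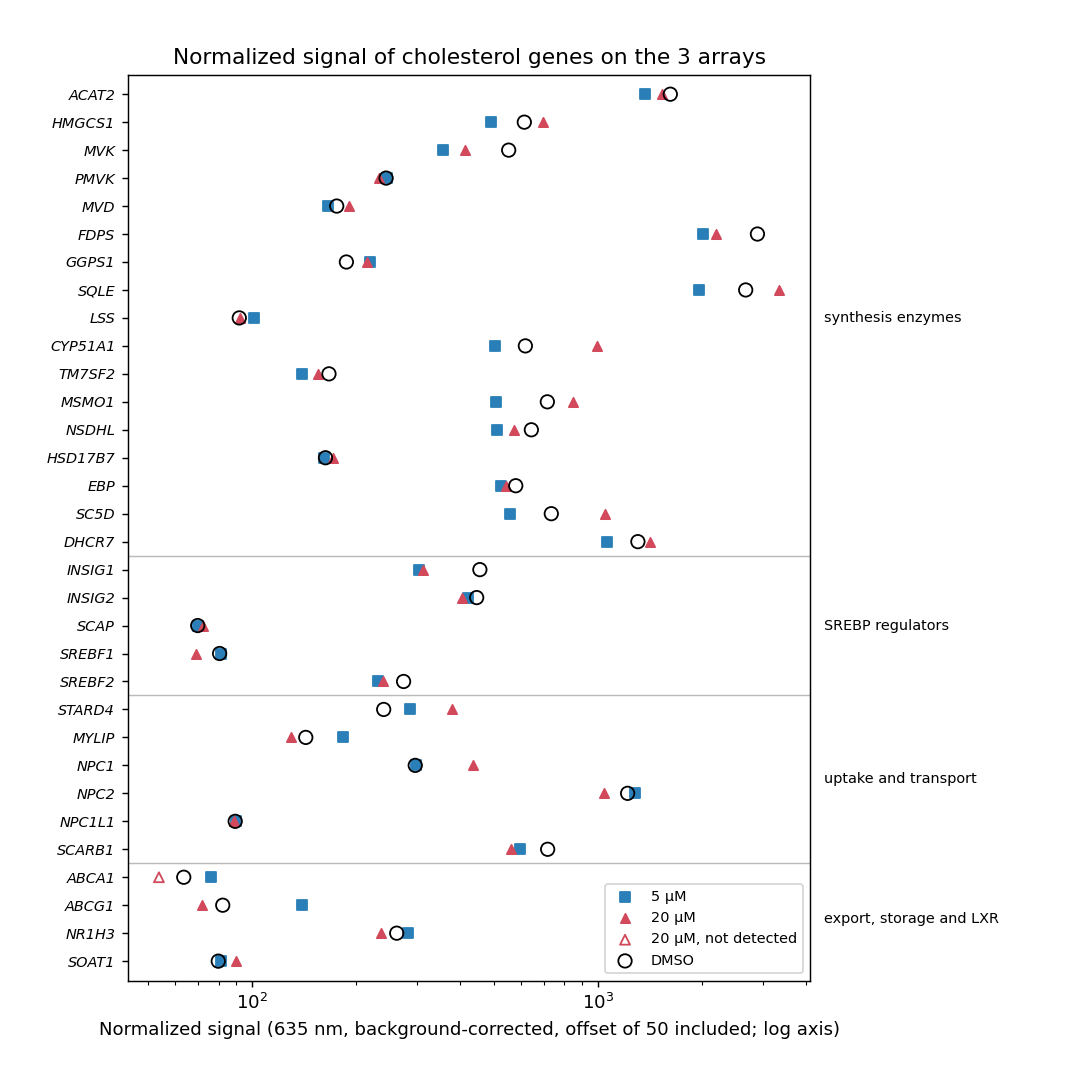
Normalized signal (log axis, offset of 50 included) of the 32 genes on each of the 3 arrays, grouped by role; open circles are DMSO, squares 5 µM, triangles 20 µM, and the open triangle marks ABCA1, not detected at 20 µM. The 5 µM array is the lowest of the 3 for 14 of 17 enzymes of synthesis, while ABCG1, MYLIP and ABCA1 are highest there.

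Mevalonate kinase, encoded by MVK, phosphorylates mevalonate. Its normalized signal was 552 with DMSO, 356 with 5 µM and 412 with 20 µM, so both treated arrays lay below DMSO, by 1.55-fold and 1.34-fold. FDPS, which makes farnesyl diphosphate, the branch point to sterols and protein prenylation, followed the same order, with 2893 with DMSO, 2012 with 5 µM and 2198 with 20 µM. Its log2 ratios were -0.52 and -0.40. ACAT2, which joins acetyl-CoA units at the head of the pathway, stood at -0.24 and -0.077 against DMSO.

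HMGCS1 makes HMG-CoA, the step before mevalonate. Its normalized signal was 613 with DMSO, 491 with 5 µM and 696 with 20 µM. It was thus lowest at 5 µM and highest at 20 µM, with log2 ratios to DMSO of -0.32 and 0.18. Under median scaling its ratio at 20 µM was 0.075, within the SD between probes. PMVK, the kinase after MVK, did not follow HMGCS1: its log2 ratios were 0.0063 and -0.065. GGPS1, which leads away from sterols to geranylgeranyl diphosphate, stood at 0.23 at 5 µM and 0.20 at 20 µM. Under median scaling its ratios became 0.077 and 0.12, both within the SD between probes. MVD, which makes isopentenyl diphosphate, had 2 probes; they gave -0.081 and 0.16 at 5 µM and 0.12 and 0.36 at 20 µM.

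Of the 10 enzymes from squalene onwards, 4 were at least 1.5-fold higher at 20 than at 5 µM. Over all genes the share was 0.917% higher and 0.886% lower. SQLE, squalene epoxidase, a rate-limiting step of the sterol branch, had a normalized signal of 2675 with DMSO, 1956 with 5 µM and 3343 with 20 µM. CYP51A1, which removes a methyl group from lanosterol, had 617 with DMSO, 506 with 5 µM and 992 with 20 µM. In both genes the 5 µM array was the lowest and the 20 µM array the highest. With the scanner's background column the log2 ratio between the doses was -0.066 for CYP51A1 and 1.25 for SQLE.

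MSMO1, which removes further methyl groups, had 714 with DMSO, 506 with 5 µM and 845 with 20 µM. SC5D, a sterol desaturase near the end of the pathway, had 733 with DMSO, 557 with 5 µM and 1046 with 20 µM. DHCR7, the reductase that makes cholesterol itself, had 1305 with DMSO, 1064 with 5 µM and 1416 with 20 µM. The order of the arrays was again 5 µM, DMSO and 20 µM from low to high, although for DHCR7 the 20 µM ratio to DMSO was small, at 0.12, and turned to -0.028 under median scaling. For MSMO1 that ratio was 0.24, and 0.13 under median scaling, within the SD between probes.

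The remaining sterol enzymes lay below DMSO at both doses or close to it. NSDHL, a dehydrogenase that works with MSMO1, stood at -0.33 at 5 µM and -0.17 at 20 µM. TM7SF2, a sterol reductase, stood at -0.26 and -0.11. EBP, a sterol isomerase, stood at -0.14 and -0.098, and its dim second probe at 0.056 and 0.082. HSD17B7 had ratios of -0.015 and 0.069, and LSS, which closes squalene epoxide into lanosterol, 0.14 and 0.0062. The spot signal of LSS was 123 in DMSO, within 1.5-fold of the detection threshold, and a small ratio there is less informative than for the brighter genes.

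**Figure D2:**
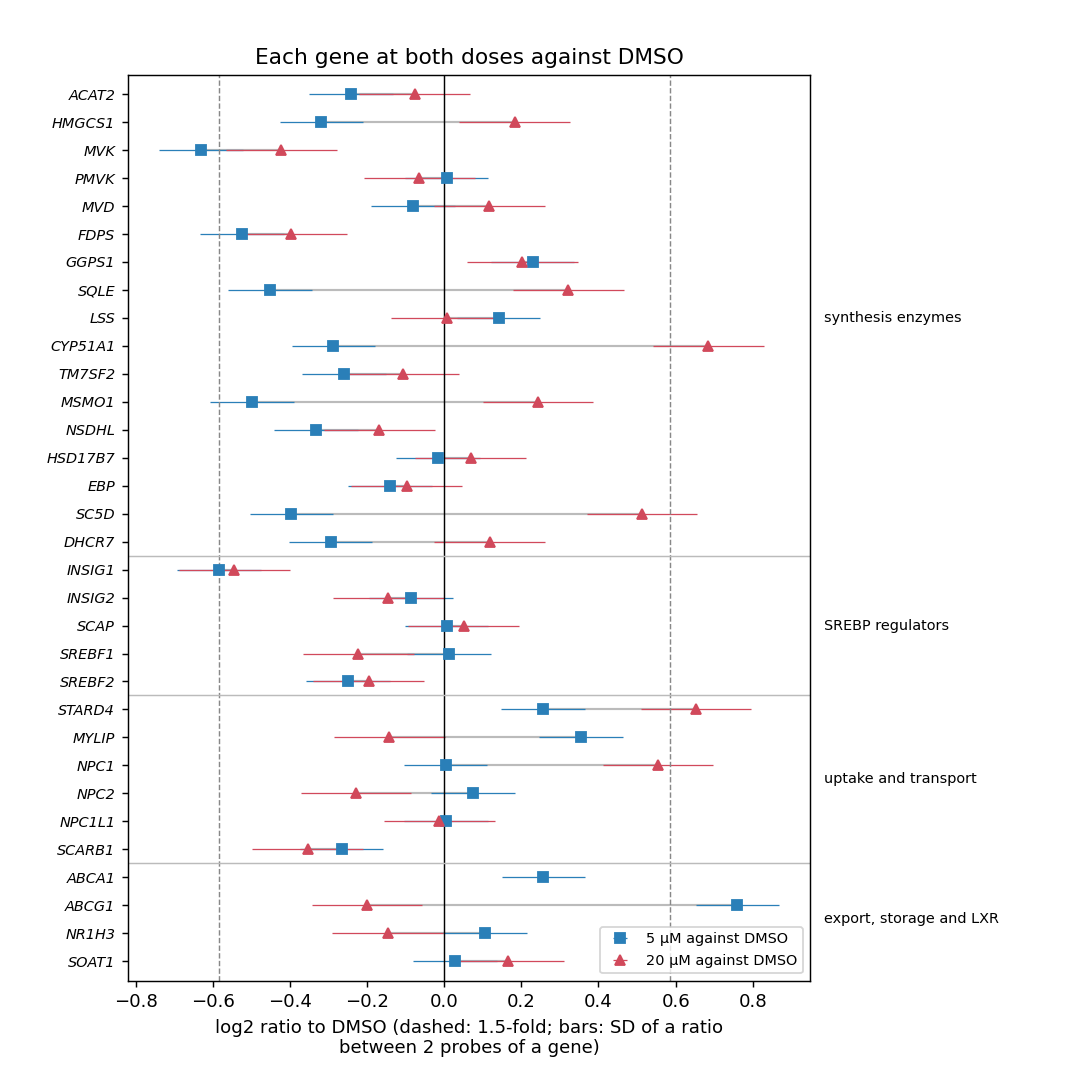
Log2 ratios to DMSO of each gene at 5 µM (squares) and 20 µM (triangles), with bars of 1 SD of a ratio between 2 probes of a gene and dashed lines at 1.5-fold. CYP51A1, SC5D, SQLE and MSMO1 lie below 0 at 5 µM and above 0 at 20 µM, INSIG1, MVK and FDPS lie below 0 at both doses, and ABCG1 lies above 0 at 5 µM only; none of these signs turned under median scaling, but with the scanner's background column those of FDPS and MVK turned at both doses, SQLE and MSMO1 at 5 µM, and INSIG1 and CYP51A1 at 20 µM.

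Among the regulators of SREBP, INSIG1 was the one that differed most from DMSO. INSIG1 is both a brake on SREBP and one of its target genes. Its normalized signal was 456 with DMSO, 304 with 5 µM and 313 with 20 µM. Both treated arrays were lower than DMSO and close to each other, at log2 ratios of -0.58 and -0.54, which is just short of 1.5-fold at 5 µM. INSIG2, its paralogue, which is not driven by sterol in the same way, stood at -0.086 and -0.14.

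SREBF2, which encodes the main SREBP of cholesterol synthesis, had a normalized signal of 274 with DMSO, 231 with 5 µM and 240 with 20 µM. It was therefore lower on both treated arrays, at log2 ratios of -0.25 and -0.20. SREBF1, which encodes the SREBP of fatty acid synthesis and is also an LXR target, had ratios of 0.013 at 5 µM and -0.22 at 20 µM. SCAP, the escort of both factors, had 0.0062 and 0.050. The spot signals of SREBF1 and SCAP were 110 and 98.0 in DMSO, near the detection threshold. Of the 5 regulators, 3 were below 0 at 5 µM and 4 at 20 µM, with medians of -0.086 and -0.20.

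STARD4, a carrier that moves sterol between membranes, had a normalized signal of 240.2 with DMSO, 287 with 5 µM and 378 with 20 µM. The signal was higher at each step, and 1.57-fold above DMSO at 20 µM. At 5 µM its log2 ratio of 0.26 became 0.10 under median scaling, within the SD between probes. NPC1, the membrane protein that lets cholesterol out of lysosomes, had 296 with DMSO, 297 with 5 µM and 435 with 20 µM. It was thus level at 5 µM and 1.47-fold higher at 20 µM. NPC2, its soluble partner, had 1219 with DMSO, 1284 with 5 µM and 1040.3 with 20 µM. This was the opposite side of DMSO at 20 µM, at -0.23, and its 5 µM ratio of 0.075 turned to -0.16 under median scaling.

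SCARB1, the receptor for high-density lipoprotein, had a normalized signal of 716 with DMSO, 595 with 5 µM and 560 with 20 µM. Both treated arrays were lower, at log2 ratios of -0.27 and -0.35. NPC1L1, the absorber of dietary cholesterol in enterocytes, had ratios of 0.0041 and -0.013 and a DMSO spot signal of 120. The 6 genes of uptake and transport had medians of 0.040 at 5 µM and -0.078 at 20 µM, with members on both sides of 0 at each dose.

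MYLIP, ABCG1 and ABCA1 are textbook LXR targets. MYLIP had a normalized signal of 143 with DMSO, 183 with 5 µM and 130 with 20 µM. ABCG1, which exports cholesterol to lipoproteins, had 82.3 with DMSO, 139 with 5 µM and 71.6 with 20 µM. For both the 5 µM array was the highest and the 20 µM array the lowest, an order opposite to that of SQLE or CYP51A1. Against DMSO, MYLIP at 20 µM stood at -0.14, within the SD between probes. With the scanner's background column MYLIP stood at 0.15 between the doses. ABCG1 was 1.69-fold above DMSO at 5 µM and stood at -0.20 at 20 µM, and its spot signals were 112, 155 and 95.9, near the detection threshold except at 5 µM.

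ABCA1, the exporter that loads apolipoprotein A-I, had spot signals of 91.1 with DMSO, 97.5 with 5 µM and 78.2 with 20 µM. It was the highest at 5 µM, with a log2 ratio of 0.26, and was not well above background at 20 µM. The DMSO array was at least 1.14-fold and the 5 µM array at least 1.36-fold above the lowest detected level at 20 µM. NR1H3, which encodes LXR alpha, stood at 0.11 at 5 µM and -0.15 at 20 µM, and its other probe at 0.20 and 0.11. SOAT1, which esterifies cholesterol for storage, stood at 0.028 and 0.17 at a DMSO spot signal of 110.

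In the second comparison, 20 µM against DMSO, the group no longer lay to one side. Of the 17 enzymes, 10 were above 0 and 7 below, with a median of 0.069, which became -0.0081 under median scaling. Over all 16062 genes detected on both arrays 52.8% were above 0 and 47.1% below, and the median was 0.0071. The early enzymes, from ACAT2 to GGPS1, had a median of -0.065 over 7 genes, and the enzymes from squalene onwards one of 0.094 over 10. The latter became -0.0077 under median scaling.

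At 20 µM CYP51A1 and STARD4 were at least 1.5-fold above DMSO, 2 of 31 genes detected on both arrays, and 0 were lower. The background was 1.94% of genes higher and 1.84% lower, or 312 and 295 genes, which became 225 and 502 under median scaling. None of the 31 was 2-fold apart, against 0.442% of all genes higher and 0.324% lower. NPC1, at 1.47-fold, and SC5D, at 1.43-fold, came next above DMSO, and INSIG1, at 1.46-fold, and MVK were the lowest. Under median scaling INSIG1 passed the limit, at -0.66, and STARD4 fell short of it, at 0.57.

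**Figure D3:**
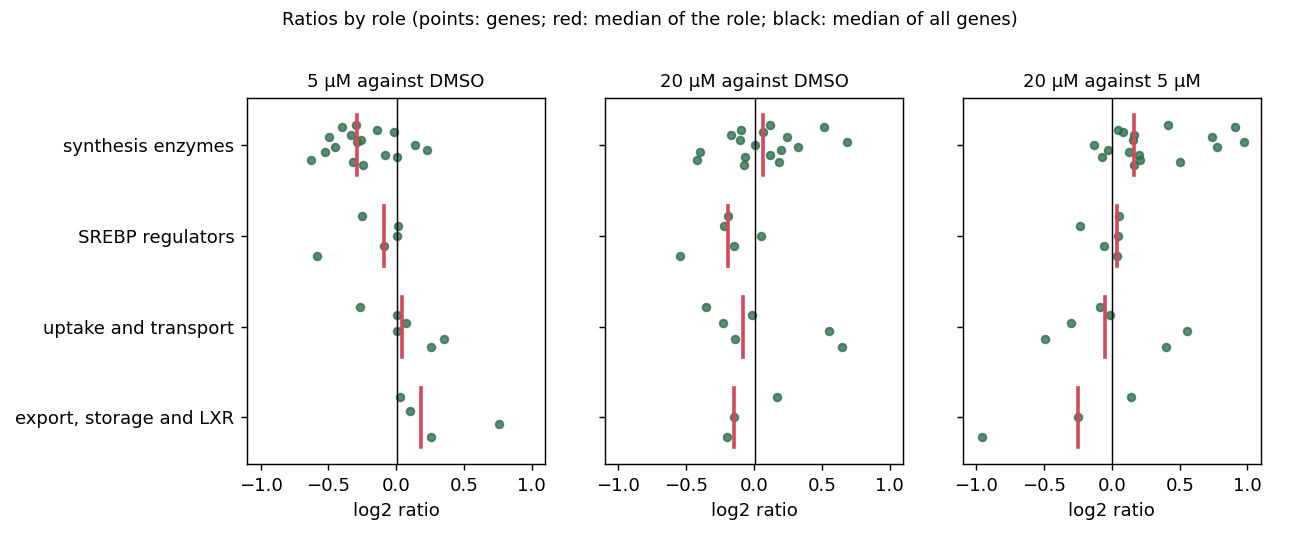
Log2 ratios of the genes by role in the 3 comparisons; points are genes, red bars the median of each role and the black line the median of all detected genes. The median of the enzymes of synthesis is -0.29 at 5 µM and 0.069 at 20 µM, the latter turning to -0.0081 under median scaling, and 0.17 between the doses.

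In the third comparison, 20 against 5 µM, the enzymes of synthesis were higher at the higher dose. Of the 17, 14 were above 0, with a median of 0.17, against 49.5% above 0 and 50.4% below over all 16036 genes and a median of -0.0011. At the 1.5-fold limit 4 of 31 genes were higher, against 0.917% of all genes, and 1 was lower, against 0.886%. In all genes these were 147 and 142, or 221 and 76 under median scaling. None was 2-fold apart, where the background was 0.131% higher and 0.0935% lower, but CYP51A1 came close.

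The 4 higher genes were sterol enzymes. CYP51A1 was 1.96-fold higher at 20 than at 5 µM, SC5D 1.88-fold, SQLE 1.71-fold and MSMO1 1.67-fold. NPC1, HMGCS1, DHCR7 and STARD4 followed at log2 ratios of 0.55, 0.50, 0.41 and 0.40. The median was 0.29 over the 10 enzymes from squalene onwards and 0.17 over the 7 before it. Both probes of MVD gave 0.20. The gene lower at the limit was ABCG1, 1.95-fold lower, with MYLIP at -0.50. INSIG1 differed by 0.040 between the doses, within the SD between probes.

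Over the genes detected on all arrays, 24.9% of 15920 had their lowest value at 5 µM and 27.5% their highest. Of the 17 enzymes, 14 were lowest and 3, PMVK, GGPS1 and LSS, highest at 5 µM. By their second probes, which are not counted, MVD and EBP were lowest with DMSO. The other 2 genes of the list with the lowest value at 5 µM were INSIG1 and SREBF2. These counts use the 5 µM array on both sides, so anything particular to that 1 array enters all of them, and its part in the result was not tested.

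The enzymes were also set beside genes of like brightness. Among genes with a DMSO spot signal of at least 400, a limit chosen after seeing the data, all 11 enzymes were below 0 at 5 µM, as were 1791 of all 3381 such genes. The limit uses the DMSO array, which also enters the 5 µM ratio, so it favours genes that are higher with DMSO. INSIG1, with spot signals of 539, 301 and 334 with DMSO, 5 µM and 20 µM, passed it. NPC1, with 354, 295 and 457, did not. The values at 5 µM are therefore no separate support. The median of the 15 listed genes was -0.32, against -0.012 over all such genes, and under median scaling these became -0.53 and -0.23. For 20 against 5 µM the 11 enzymes were all above 0, with a median of 0.41, against 1527 of the 3381 genes. The median of the 15 listed genes was 0.17, against -0.024 over all such genes, or 0.29 against 0.081 under median scaling.

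Of the alternative settings run, subtracting the scanner's background column turned the most signs. The sign then turned for 15 of 32 genes at 5 µM, 11 of 31 at 20 µM and 14 of 31 between the doses. At 5 µM FDPS turned to 1.38, MVK to 0.84, MSMO1 to 0.47 and SQLE to 0.42. At 20 µM FDPS turned to 1.08, MVK to 0.64, INSIG1 to 0.60 and CYP51A1 to -0.52. Between the doses CYP51A1 turned to -0.066 and DHCR7 to -1.07, while SC5D, SQLE and MSMO1 stayed higher at 20 µM, at 1.74, 1.25 and 0.74. ABCG1 kept its signs but shrank to 0.047 at 5 µM and -0.053 between the doses. The ratios of all genes were also wider with that column, with 695 genes higher and 751 lower at the 1.5-fold limit for 5 µM against DMSO. The cause of these turns was not tested.

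The value table deposited by the authors holds the same arrays after subtraction of roughly the blank level and without an offset, so ratios of dim genes are wider in it. Its arrays were also scaled by unlike factors, in a way that is not stated. In it, MVK had values of 268 with DMSO, 155 with 5 µM and 190.1 with 20 µM, CYP51A1 had 303, 233 and 500.4, and ABCG1 15.2, 44.8 and 9.7. The log2 ratio of ABCG1 was 1.56 at 5 µM and -2.21 between the doses, and that of ABCA1 was 1.15 at 5 µM, with no value at 20 µM. SREBF1 stood at -0.77 at 20 µM there. The enzymes had a median of -0.40 at 5 µM, 0.061 at 20 µM and 0.24 between the doses. All 9 ratios counted at the 1.5-fold limit over the 3 comparisons had the same direction in the table.

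**Figure D4:**
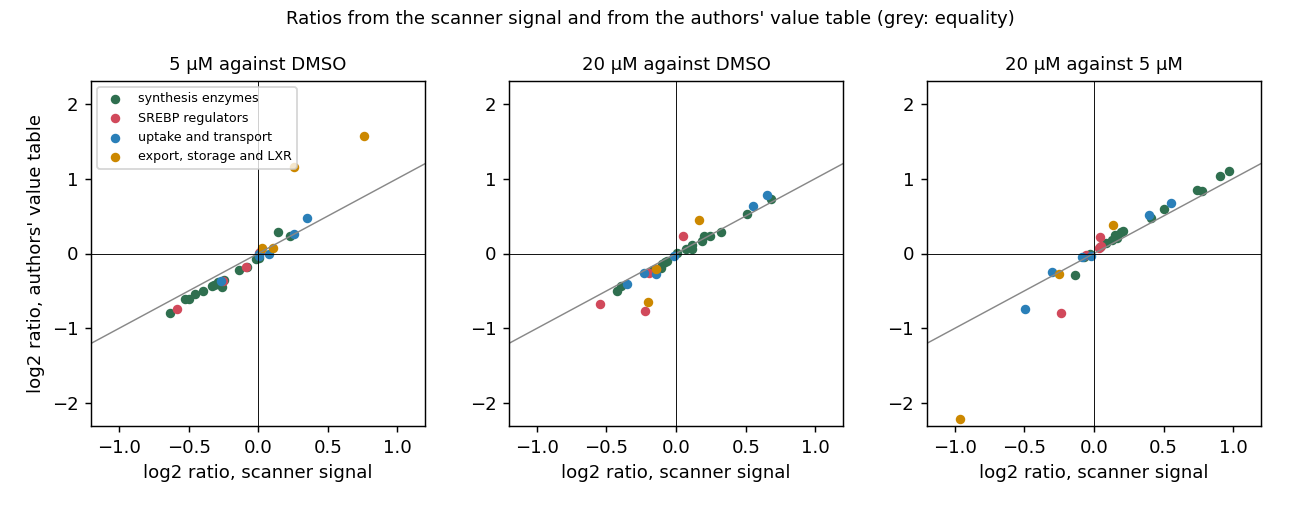
Log2 ratios of the genes from the scanner signal (x axis, offset of 50 included) and from the authors' value table (y axis), by comparison; the grey line is equality. Enzymes of synthesis lie close to the line, and ABCG1, at 0.76 against 1.56 for 5 µM and -0.96 against -2.21 between the doses, lies far outside it.

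Another 41 genes of sterol and isoprenoid metabolism were listed for comparison. Of these, 35 were on the array and 33 were detected on all arrays. None of the 33 was 1.5-fold apart in any comparison, and their medians were 0.0084 at 5 µM, 0.021 at 20 µM and 0.0036 between the doses. Under median scaling 1 of them was 1.5-fold lower at 20 µM. In the authors' deposited table, values at least 1.5-fold lower were found for 2 at 5 µM, 1 of them at least 2-fold lower, and 1 was higher and 1 lower at 20 µM and likewise between the doses. The 4 farthest from 0 were NUS1, LBR, DHDDS and LIPA. NUS1 and DHDDS form the enzyme that turns farnesyl diphosphate towards dolichol, the carrier of sugars for glycosylation in the ER; NUS1 stood at 0.46 at 5 µM and 0.55 at 20 µM, and DHDDS at 0.16 and 0.42. LBR, a nuclear envelope protein with the same sterol reductase activity as TM7SF2, stood at -0.20 and -0.48. LIPA, the lysosomal lipase that frees cholesterol from its esters, stood at -0.12 and 0.23, and at 0.35 between the doses.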

How the data were processed

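Total RNA of HT29 cells was amplified as amino allyl aRNA, coupled to Cy5 and hybridised to Toray arrays, per the labels' protocols. Doses are in mM in the sample titles and in µM in the treatment labels, which were followed. Per the file headers, the deposited scanner files hold the median intensity of each spot on a linear scale, from 3 gains. The authors' value table also holds a linear intensity per probe; its scaling is not stated. The sources used here do not name the extraction software. Spot signals were corrected with normexp (limma 3.58.1, R 4.3.3; offset 50) and quantile normalized over 24460 gene probes, of which 21078 were detected with DMSO, 20927 with 5 µM and 20951 with 20 µM. The scanner's background column followed the spot's own signal (Spearman correlations across spots of 0.967, 0.962 and 0.966) and served only as an alternative. Thresholds came from 480 blank and negative control spots after trimming 5% at each end. Of the probes, 21707 had 1 gene symbol, 0 several and 2753 none; 21675 matched a gene record. The probe detected on most arrays and brightest on average stood for a gene. Log2 ratios were computed in Python 3.11.15 (pandas 2.3.3, numpy 2.4.6), and plots used matplotlib 3.10.9. Only the normalization and the ratios were tested on simulated arrays, with changes placed in bright probes. All listed genes are named; other pathway genes only if 1.5-fold apart or among the 4 farthest from 0. The members and lists were chosen with earlier results of these data known, and the promoter motifs after the windows had been searched with related motifs.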

Additional observations from a re-analysis of the deposited data

How the results depend on the processing

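With 1 array per group, no culture could be left out, and no spread between cultures bounds the values. No paired analysis was possible because each group has 1 array. A value is called moved below where it changed by more than the SD between probes, or a count by more than 1.5 times. For 5 µM against DMSO the median of all listed genes, -0.084, moved to -0.25 under median scaling, to -0.25 with signals at least 2 times the threshold and to -0.32 with DMSO signals of at least 400; that of the enzymes, -0.29, moved to -0.49 under median scaling, -0.40 in the authors' value table and 0.023 with the scanner's background column. The 1 lower gene became 6 under median scaling, 2 with an offset of 16, 2 with the background column and 4 in the value table, and the 1 higher gene became 3 with the background column, 2 in the value table and 0 with either limit on brightness, which leaves ABCG1 out. For 20 µM against DMSO the 2 higher genes became 1 under median scaling, 8 with the background column and 1 with DMSO signals of at least 400, and the 0 lower genes became 1 under median scaling, 1 with an offset of 16, 3 with the background column and 3 in the value table. For 20 against 5 µM the enzyme median of 0.17 moved to 0.41 with DMSO signals of at least 400, and the 1 lower gene became 2 with an offset of 16, 4 with the background column, 3 in the value table and 0 with either limit on brightness. Of the ratios past 1.5-fold, the background column reversed MVK at 5 µM, to 0.84, and CYP51A1 at 20 µM against DMSO, to -0.52, and against 5 µM, to -0.066; the cause was not tested. Among all ratios of at least 0.3 in size it turned 5 of 10 at 5 µM (FDPS, MSMO1, MVK, MYLIP and SQLE), 4 of 9 at 20 µM (CYP51A1, FDPS, INSIG1 and MVK) and 3 of 11 between the doses (CYP51A1, DHCR7 and MYLIP), whereas median scaling and the value table turned 0 of these. All 9 ratios past 1.5-fold kept their direction under median scaling, without background correction, with an offset of 16, in the value table, without the detection filter and with the mean over probes, and 6 of 9 did so with the background column. These 6 include those of ABCG1, which shrank to 0.047 at 5 µM and -0.053 between the doses. With that column the genes counted at 5 µM were MVK, FDPS and NPC2 as higher and ACAT2 and EBP as lower. CYP51A1 was not among the 8 higher at 20 µM. The 4 lower between the doses were ACAT2, DHCR7, NPC2 and SCARB1, without ABCG1. Dim genes, among them ABCA1, ABCG1, SCAP, SREBF1, SOAT1 and NPC1L1, are limited by signal over background.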
